A study of Acomys cahirinus and Mus musculus with 6 samples.

Results

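Heat shock chaperones were followed across cell types and libraries of healing ear punch wounds in spiny mouse and mouse. The group was set by name and not by measured values: Hspa1a, Hspa1b, Dnajb1, Hsph1, Hspb1, Hsp90aa1, Hsp90ab1, Hspa8, Hspd1 and Hspe1, which are 10 of the 20381 genes in the deposited count table. Ear pinna skin of Acomys cahirinus, a spiny mouse labelled wild type that closes such holes, came from animals injected between day 12 and day 15 with an ERK inhibitor, an ErbB2 inhibitor, an inhibitor of the FGF receptors 1, 2 and 3 (FGFR inhibitor) or, as their common control, the solvent DMSO. Ear skin of CD1 laboratory mice carried beads soaked in the growth factors FGF2 and NRG1, or in PBS as their control, implanted at day 10. The day of harvest was not given in the sources used here. All tissue was dissociated with a Bacillus licheniformis protease and a Dounce homogenizer, and red cells were lysed before droplet capture with 10x Genomics 3′ chemistry. Each group was 1 library, so every difference below compares libraries and not conditions, and no test could be made.

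Heat shock chaperones bind unfolded or unstable proteins and help them to fold, to be held or to be degraded. The inducible members are switched on by heat shock factor 1 when unfolded proteins accumulate, and tissue dissociation is a known trigger of both this response and of immediate early genes such as Fos. Hspa1a and Hspa1b are the stress-inducible HSP70 proteins, Dnajb1 is a J-domain partner that hands clients to HSP70, and Hsph1 is a nucleotide exchange factor for it. Hspb1 is a small heat shock protein without ATPase activity that is known from the differentiating layers of the epidermis. Hsp90aa1 is the more inducible and Hsp90ab1 the more constitutive cytosolic HSP90, Hspa8 is the constitutive HSP70, and Hspd1 with Hspe1 forms the mitochondrial chaperonin and its lid.

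Hspa1a and Hspa1b are nearly alike in their coding sequence but unlike in their 3′ ends. In the mouse annotation (GENCODE vM21 on GRCm38) they lie side by side on the reverse strand, Hspa1a at chr17:34969190-34972156 and Hspa1b at chr17:34956436-34959238. Their coding sequences matched at 1918 of 1929 aligned bases (99.4%), but their 3′ untranslated regions, which the 3′ chemistry reads, matched at 369 of 814 (45.3%). The constitutive Hspa8 at chr9:40800984-40810087 on the forward strand matched the Hspa1a coding sequence at 1435 of 1941 aligned bases (73.9%). The last 90 coding bases of each, with the stop codon, show how close the inducible pair is, and capitals mark the bases that do not match Hspa1a in an alignment of the whole coding sequences.
Hspa1a: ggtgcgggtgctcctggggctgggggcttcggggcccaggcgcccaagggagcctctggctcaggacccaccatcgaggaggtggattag
Hspa1b: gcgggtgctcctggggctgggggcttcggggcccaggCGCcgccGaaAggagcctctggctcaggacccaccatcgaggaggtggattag
Hspa8: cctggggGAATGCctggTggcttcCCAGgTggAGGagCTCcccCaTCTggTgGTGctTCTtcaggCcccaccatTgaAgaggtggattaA
In this window 5 bases of Hspa1b and 33 bases of Hspa8 did not match. In the last 500 bases of the transcripts, 0 of 411 windows of 90 bases from Hspa1a, Hspa1b, Dnajb1, Hsph1, Hsp90aa1, Hsp90ab1 or Hspd1 occurred in a transcript of another gene. Windows shared with another gene made up 328 of 411 (79.8%) for Hspa8, 206 (50.1%) for Hspb1 and 148 (36.0%) for Hspe1, and the genes that share them had no row in the count table. How the authors' counting treated such reads was not given in the sources used here, so the levels of those 3 genes are uncertain in that respect.

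The table held 39577 cells, 31408 of the spiny mouse and 8169 of the mouse, in 17 annotated types and 47 clusters. The libraries held 631 (ERK inhibitor), 10632 (ErbB2 inhibitor), 4782 (FGFR inhibitor), 15363 (DMSO), 5104 (FGF2 and NRG1 beads) and 3065 cells (PBS beads), with 7429819 to 70058081 unique molecular identifiers (UMIs, a count of captured RNA molecules) per library. Epidermal keratinocytes, the interfollicular clusters that passed a check of their markers, were the main class, with 261, 4598, 2321, 7791, 821 and 805 cells in the same order. Spiny clusters 9 and 21 and mouse cluster 33 did not pass and were left out. A cluster with no listed marker of any class among its 10 leading genes also passed, as spiny clusters 0, 1 and 5 did. The identity of such clusters therefore rests on the annotation. Cluster 30, annotated as basal and not as cycling basal, led with DNA replication genes, such as Cdc6 and Orc1 (602 spiny cells) and Mcm5 and Mcm2 (80 mouse cells). The basal keratinocytes below include it, so they are not free of dividing cells. Spiny cluster 9 was left out on 1 hair follicle marker, while mouse cluster 9, with 1 keratinocyte and 1 hair follicle marker, was kept. The cluster annotated as circulating monocytes led with neutrophil genes and is called cluster 7, and the one annotated as resident macrophages is called cluster 6. Cluster 34, annotated as fibroblasts, led with muscle genes in the spiny cells and Schwann cell genes in the mouse cells and is also called by its number. Cluster 37, annotated as inner root sheath, led with hair keratin and keratin-associated protein genes, such as Krt86 and Krtap8-1 (spiny) and Krt82 and Krtap16-3 (mouse). No listed inner root sheath marker was among its 10 leading genes, so inner root sheath as a class below is only the annotated name. Of 39393 distinct cell barcodes, 184 occurred in more than 1 library, and leaving out the 368 cells that carry them left all 46 counts and ratios within counting error. Levels are given as UMIs per 1000000 UMIs of a class (CPM). Fewer cells that express a gene and less RNA per cell cannot be told apart in such sums.

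Hspa1a and Hspa1b could be read in the mouse libraries but had 0 UMIs in every one of the 31408 spiny cells. With 173594909 UMIs in the spiny libraries, a count of 0 allows a level of up to 0.0173 CPM. In the mouse the same symbols had 3555 UMIs in 1853 cells and 3913 UMIs in 2059 cells of 8169. Hsp90ab1 stood at 5.08 CPM in the spiny cells and 2302 CPM in the mouse cells. The other 7 members were counted in both species, at 106 and 48.2 CPM for Dnajb1, 13.9 and 14.5 CPM for Hsph1, 746 and 521 CPM for Hspb1, 453 and 300 CPM for Hsp90aa1, 901 and 769 CPM for Hspa8, 232 and 219 CPM for Hspd1, and 292 and 251 CPM for Hspe1, spiny mouse first. Genes with 0 UMIs throughout numbered 5345 (26.2%) in the spiny mouse and 986 (4.84%) in the mouse. All reads carry mouse gene names and the reference used for the spiny reads was not given in the sources used here. A level of 0 is thus a listing under the mouse name, and no ratio was taken across species.

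Among mouse cell types, the inducible HSP70 genes were counted mostly in the upper epidermis and the hair follicle. Hspa1a was highest in suprabasal keratinocytes, at 122 CPM with FGF2 and NRG1 beads and 175 CPM with PBS beads, followed in both libraries by the outer root sheath at 106 and 144 CPM. Hspa1b had the same order, at 147 and 174 CPM in suprabasal keratinocytes and 126 and 129 CPM in the outer root sheath. At the low end, endothelium held 8.77 and 13.4 CPM of Hspa1a and 17.7 and 20.1 CPM of Hspa1b. The median over classes was 27.0 and 37.1 CPM for Hspa1a and 25.5 and 38.9 CPM for Hspa1b. The inner root sheath differed in direction from the rest of the epithelium, with 70.9 CPM of Hspa1a with growth factor beads against 54.1 CPM with PBS beads, and 86.6 against 67.8 CPM of Hspa1b. The counting intervals of those log2 ratios reached down to 0.00 and 0.01. Over the 31 profiles of mouse libraries by annotated type, the log2 levels of the pair had r = 0.90, a description over points that share 2 libraries and their depth.

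**Figure D1:**
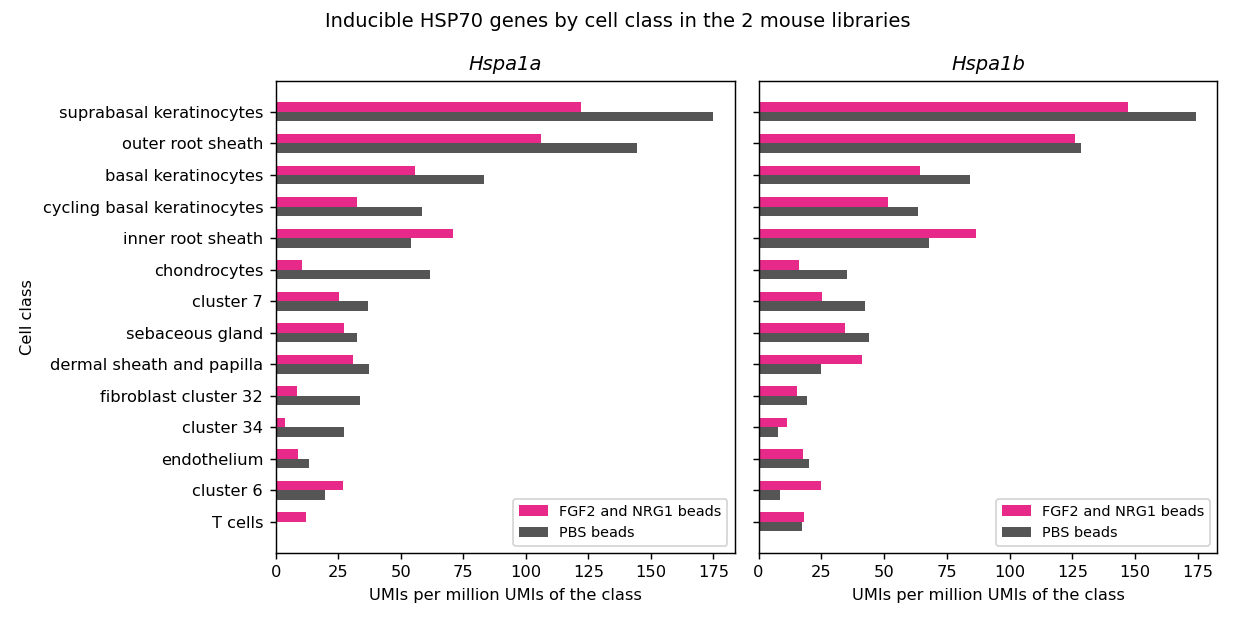
Levels of Hspa1a (left) and Hspa1b (right) in CPM (x axis) for each mouse class (y axis) that held 30 or more cells in each library, with the FGF2 and NRG1 bead library drawn above the PBS bead library. Suprabasal keratinocytes and the outer root sheath hold the longest bars in both libraries, and for Hspa1a the growth factor bar is the shorter one in all 3 keratinocyte classes.

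The HSP70 partners were spread differently. Dnajb1 was highest in suprabasal keratinocytes of all 4 spiny libraries, at 183 CPM (ERK inhibitor), 226 CPM (ErbB2 inhibitor), 173 CPM (FGFR inhibitor) and 138 CPM (DMSO). In the mouse its top class was the inner root sheath, at 62.5 CPM with growth factor beads and 93.1 CPM with PBS beads. Its level over mouse profiles had r = 0.66 with Hspa1a, and its levels had r = -0.01 (56 spiny profiles of 4 libraries) and 0.40 (mouse) with Hsph1. Hsph1 had few UMIs in most classes and no class led in every library. Set against the summed level of Hspa1a, Hspa1b, Dnajb1 and Hsph1, the 5 other genes with the closest pattern in the mouse were Pof1b (r = 0.92), the desmosome protein gene Dsp (0.91), Evpl for envoplakin (0.90), Fam83g (0.90) and Ripk4 (0.89). In the spiny mouse they were Lipm (0.75), Wdr74 (0.72), the proteasome ubiquitin receptor gene Adrm1 (0.72), Arpc5l (0.71) and Cltb (0.71), where the sum holds only Dnajb1 and Hsph1.

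Hspb1 led in the cluster annotated as inner root sheath or in suprabasal keratinocytes in every library. It was highest in the inner root sheath of the DMSO library at 3432 CPM, and of the growth factor and PBS bead libraries at 1856 and 1589 CPM. In the inhibitor libraries it was highest in suprabasal keratinocytes, at 1599 CPM (ERK inhibitor), 1956 CPM (ErbB2 inhibitor) and 2651 CPM (FGFR inhibitor). The inner root sheath did not reach 30 cells in these 3 libraries and was not ranked there. The highest class stood 24.5 times over the lowest in the DMSO library, which was another epithelium, the sebaceous gland at 140 CPM. The sebaceous gland was also lowest with the ErbB2 inhibitor (162 CPM), the FGFR inhibitor (84.4 CPM) and growth factor beads (29.7 CPM). Cluster 7 was lowest with the ERK inhibitor (17.9 CPM) and cluster 6 with PBS beads (15.5 CPM). Within keratinocytes, the 10% of cells with most Hspb1 held 68.1% to 75.3% of its UMIs in the 6 libraries, and a single cell held up to 405. For Hspa8 the top 10% held 30.5% to 35.8%, so Hspb1 was the far more uneven of these.

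Hsp90aa1 and Hspa8 were counted in every class of every library, and Hsp90ab1 in every mouse class. Hsp90aa1 was highest in cycling basal keratinocytes in 5 libraries, at 854 CPM (ERK inhibitor), 919 CPM (FGFR inhibitor), 865 CPM (DMSO), 639 CPM (FGF2 and NRG1 beads) and 611 CPM (PBS beads). In the ErbB2 inhibitor library fibroblast cluster 32 led at 566 CPM and cycling basal keratinocytes followed at 531 CPM. Hsp90ab1 in the mouse peaked in basal keratinocytes with growth factor beads (3095 CPM) and in the outer root sheath with PBS beads (2624 CPM), and was lowest in cluster 7 in both (742 and 744 CPM). Hspa8 was highest in endothelium in the ERK inhibitor, ErbB2 inhibitor, FGFR inhibitor, DMSO and growth factor bead libraries, at 1872, 1246, 1476, 1274 and 1230 CPM. With PBS beads cluster 6 (1014 CPM) and endothelium (998 CPM) stood side by side at the top. Its highest class was only 1.86 times over its lowest in the DMSO library, the reverse of the picture for Hspb1.

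The mitochondrial pair peaked in the sebaceous gland in all 6 libraries. Hspd1 stood there at 484, 531, 415 and 458 CPM in the ERK, ErbB2 and FGFR inhibitor and DMSO libraries, and at 644 and 580 CPM with growth factor and PBS beads. Hspe1 stood at 544, 618, 615, 608, 566 and 521 CPM in the same order. In the annotation these genes are neighbours on opposite strands with overlapping first ends, Hspd1 at chr1:55077835-55088243 and Hspe1 at chr1:55088132-55091307. Their levels had r = 0.89 over the spiny profiles and 0.86 over the mouse profiles. The closest other genes to their sum in the spiny mouse were C1qbp (0.92), Timm13 (0.91), Phb (0.90), St13 (0.90) and Atp5g1 (0.90), and in the mouse Atp5o (0.92), Mrpl12 (0.92), Etfb (0.92), Atp5a1 (0.91) and Ndufab1 (0.91). Timm13, Atp5g1, Atp5o, Mrpl12, Atp5a1 and Ndufab1 encode mitochondrial import, ATP synthase, ribosome and respiratory chain proteins.

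For the comparisons in keratinocytes a gene counted as measured when the pair of libraries held 30 or more of its UMIs, and as higher or lower when its CPM, with 1 UMI added to each count, differed at least 1.5-fold. Intervals are exact 95% binomial intervals of the ratio and cover counting error only, not the spread between animals. The 3 inhibitor comparisons share the DMSO library, so an odd value in it would enter all of them.

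**Figure D2:**
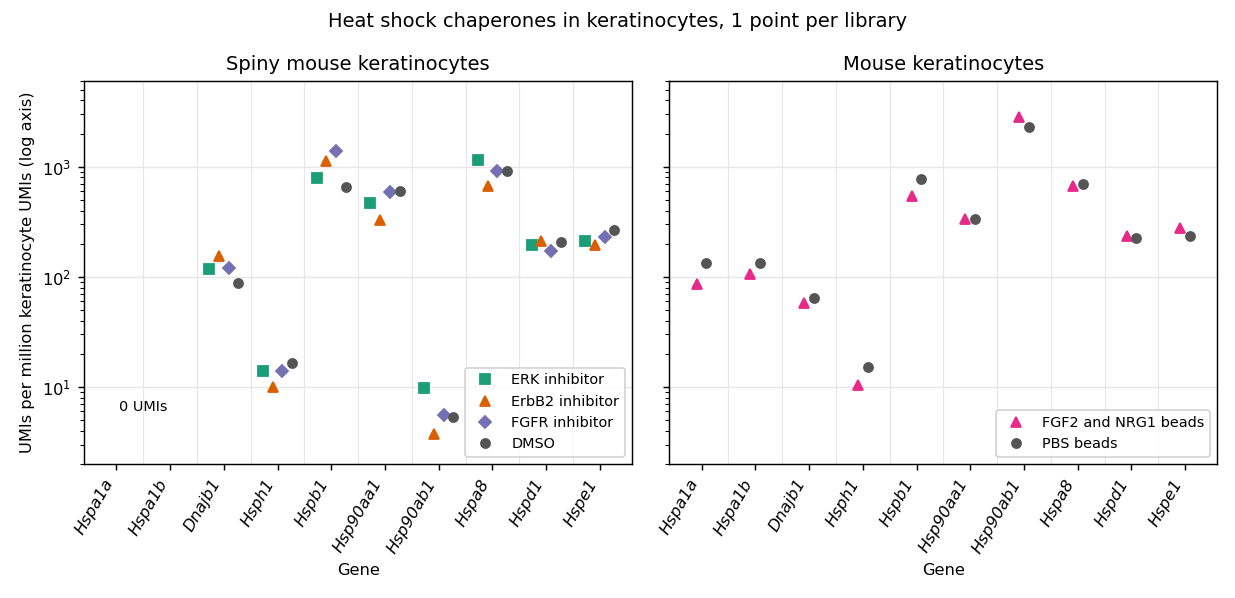
CPM of each member in epidermal keratinocytes (log axis) by library, with the spiny mouse libraries on the left and the mouse libraries on the right. Hspa1a and Hspa1b have 0 UMIs in the spiny libraries, and Hsp90ab1 sits between 3.75 and 9.87 CPM there against 2842 and 2316 CPM in the mouse libraries.

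With the ErbB2 inhibitor, keratinocytes held more Dnajb1 and Hspb1 and less Hsp90aa1 and Hsph1 than with DMSO. Of 8 measured members 2 were higher and 2 lower, where 6.95% of all measured genes were higher and 12.6% lower. Dnajb1 had 5153 UMIs (154 CPM) with the ErbB2 inhibitor and 3688 UMIs (88.8 CPM) with DMSO, a log2 ratio of 0.80 (0.74 to 0.86). Its exchange partner Hsph1 went the other way, with 337 UMIs (10.1 CPM) against 692 UMIs (16.7 CPM) and a log2 ratio of -0.72 (-0.91 to -0.53). Hspb1 stood at 1133 CPM with the ErbB2 inhibitor and 657 CPM with DMSO, at 0.79 (0.76 to 0.81). The inducible HSP90 gene had the largest difference of the members, with Hsp90aa1 at 329 CPM against 605 CPM and -0.88 (-0.91 to -0.85). Co-chaperone and client-binding genes of the same response thus lay on both sides of 0. The remaining members were within 1.5-fold: Hsp90ab1 at 3.75 against 5.35 CPM (-0.51, -0.84 to -0.19), Hspa8 at 665 against 913 CPM (-0.46, -0.48 to -0.43), Hspe1 at 197 against 267 CPM (-0.44, -0.49 to -0.40) and Hspd1 at 212 against 209 CPM (0.02, -0.02 to 0.07). The median ratio of the members was -0.45, and that of all genes -0.09.

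The higher and lower members of this comparison behaved differently when keratinocytes were divided. Suprabasal cells were 45.4% of keratinocytes with the ErbB2 inhibitor and 29.9% with DMSO, and the summed granular markers stood at 3238 against 985 CPM. Hsp90aa1 stood lower in each class, in basal keratinocytes (368 against 643 CPM, -0.81), in cycling basal keratinocytes (531 against 865 CPM, -0.71) and in suprabasal keratinocytes (252 against 418 CPM, -0.73). Within single keratinocyte clusters its ratio was below 0 in 16 of 16, between -0.87 and -0.41. Hspb1 differed less within the classes, at 231 against 188 CPM in basal (0.30), 0.06 in cycling basal, and 1956 against 1448 CPM in suprabasal keratinocytes (0.43). Within clusters it lay above 0 in 11 and below 0 in 5 of 16, between -0.50 and 0.53. Dnajb1 stood at 226 against 138 CPM in suprabasal keratinocytes (0.71) and at 75.2 against 57.7 CPM in basal ones (0.38). With both libraries weighted to the cluster mix of the DMSO library, neither Dnajb1 (0.49) nor Hspb1 (0.16) was past 1.5-fold, and Hsp90aa1 still was (-0.70).

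Immediate early genes did not lean one way in the same cells. Of 22 measured, 4 stood higher and 4 lower, with a median of 0.00 and a sum of 1624 against 1379 CPM. The 4 farthest from 0 were all lower, Fosl1 at 0.60 against 2.26 CPM (-1.86), Nr4a1 at 0.75 against 2.58 CPM (-1.74), Fos at 25.4 against 64.1 CPM (-1.33) and Klf2 at 5.13 against 12.2 CPM (-1.24). Among 21 other cytosolic chaperones and targets of heat shock factor 1, 0 were higher and 2 lower, the small heat shock protein genes Hspb2 (-1.20) and Cryab (-1.01). Hspa4l (0.42) and Hsf1 (-0.39) followed within 1.5-fold. None of 7 genes of the CCT chaperonin, which folds actin and tubulin, was past 1.5-fold, with Cct5 (-0.36), Tcp1 (-0.26), Cct3 (-0.21) and Cct4 (-0.20) farthest from 0. Endoplasmic reticulum chaperones had 1 of 18 higher and 4 lower, and Calr for calreticulin stood at 163 against 455 CPM (-1.48), followed by Hsp90b1 (-1.06), Xbp1 (0.82) and Sdf2l1 (-0.81). None of 7 other mitochondrial chaperones and proteases was past 1.5-fold, with Clpx (0.40), Trap1 (-0.25), Hspa9 (-0.24) and Dnaja3 (0.20) at the ends. The metallothionein genes Mt2 (236 against 144 CPM, 0.71) and Mt1 (0.62) were higher, and Mt4 (0.11) was not.

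With the FGFR inhibitor, Hspb1 was the only member past 1.5-fold in keratinocytes while immediate early genes were broadly higher. Of 8 measured members 1 was higher and 0 lower, against 4.79% and 9.2% of all measured genes. Hspb1 stood at 1394 CPM with the FGFR inhibitor and 657 CPM with DMSO, a log2 ratio of 1.09 (1.06 to 1.11). Dnajb1 had 2520 UMIs (121 CPM) against 3688 UMIs (88.8 CPM), at 0.45 (0.37 to 0.52). The rest were closer to 0: Hsph1 at 14.0 against 16.7 CPM (-0.25), Hsp90aa1 at 589 against 605 CPM (-0.04), Hsp90ab1 at 5.52 against 5.35 CPM (0.05), Hspa8 at 919 against 913 CPM (0.01), Hspd1 at 170 against 209 CPM (-0.30) and Hspe1 at 228 against 267 CPM (-0.23). The median of the members was -0.01 and that of all genes -0.07. Among immediate early genes 10 of 22 were higher and 0 lower, with a median of 0.53 and a sum of 2367 against 1379 CPM. Fosb led at 57.6 against 8.38 CPM (2.78), followed by Fos at 323 against 64.1 CPM (2.33), Nr4a1 at 10.0 against 2.58 CPM (1.95) and Dusp1 at 366 against 124 CPM (1.56).

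The higher Hspb1 was seen in the differentiated cells and not in the basal ones. In suprabasal keratinocytes it was 2651 CPM with the FGFR inhibitor and 1448 CPM with DMSO (0.87). Basal keratinocytes had 147 against 188 CPM (-0.35) and cycling basal keratinocytes 129 against 159 CPM (-0.30). Within clusters the ratio was above 0 in 7 and below 0 in 8 of 15, and the clusters with the most Hspb1 were those above 0. Cluster 10 had 3609 against 1981 CPM (0.86), cluster 35 had 4885 against 3011 CPM (0.70), and cluster 27 had 5506 against 3647 CPM (0.59). At the other end cluster 19 had 51.0 against 112 CPM (-1.11). Suprabasal cells were 43.2% of keratinocytes with the FGFR inhibitor and 29.9% with DMSO, granular markers summed to 2452 against 985 CPM, and inner root sheath markers to 31.6 against 543 CPM. Weighted to the DMSO mix of clusters, the Hspb1 ratio was 0.46 and no member was past 1.5-fold. Dnajb1 lay above 0 in 14 of 15 clusters.

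**Figure D3:**
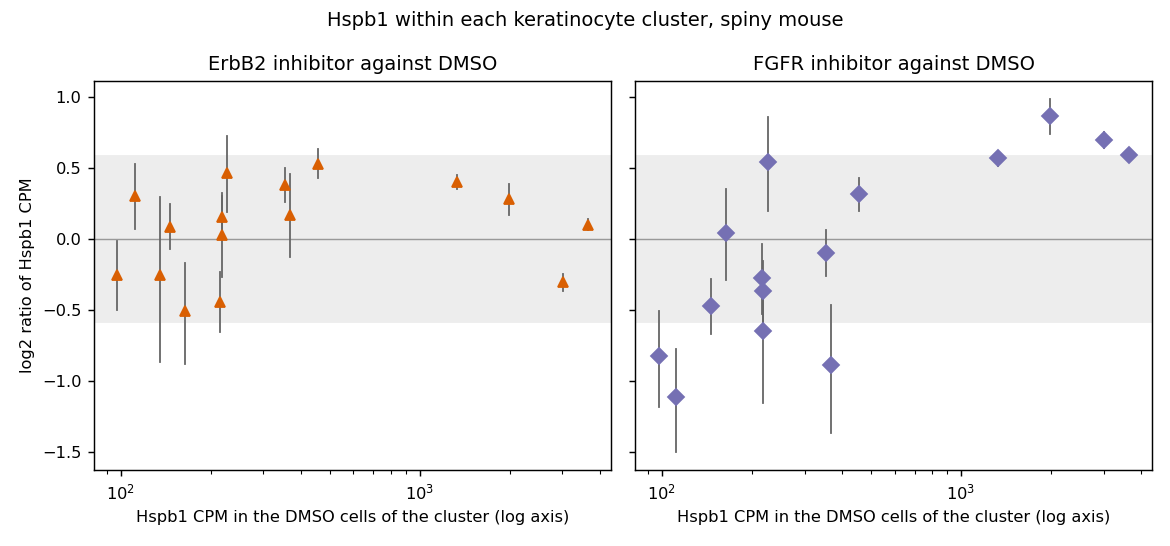
Log2 ratio of Hspb1 (y axis) against its CPM in the DMSO library (x axis, log scale) for each keratinocyte cluster, with the ErbB2 inhibitor on the left and the FGFR inhibitor on the right; both axes share the DMSO value. On the right the clusters with most Hspb1 lie above 0 and several with little Hspb1 lie below it, while on the left all clusters lie between -0.50 and 0.53.

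The other stress lists gave 1 gene higher and 4 lower with the FGFR inhibitor, 3 of those in the endoplasmic reticulum list. Of 21 other cytosolic chaperones and heat shock factor targets 1 was higher, Hspb8 at 3.07 against 1.83 CPM (0.75), and 1 lower, Hspb2 at 0.62 against 1.01 CPM (-0.62), with Hspa4l (0.42) and Serpinh1 (-0.40) next. CCT genes had 0 of 7 past 1.5-fold, led by Cct3 (-0.33), Cct4 (-0.29), Tcp1 (-0.27) and Cct5 (-0.23). Among 18 endoplasmic reticulum chaperones 0 were higher and 3 lower, Calr at 185 against 455 CPM (-1.30), Sdf2l1 (-0.70) and Hsp90b1 (-0.62), followed by Pdia4 (-0.42). No mitochondrial gene of 7 was past 1.5-fold, with Clpp (-0.28), Hspa9 (-0.27), Clpx (0.22) and Grpel1 (-0.12) farthest. Metallothioneins were within 1.5-fold, at -0.44 (Mt2), -0.43 (Mt4) and -0.23 (Mt1).

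With the ERK inhibitor, a library of 261 keratinocytes, the sparsely counted Hsp90ab1 was the member past 1.5-fold in summed UMIs. Of 8 measured members 1 was higher and 0 lower, against 11.8% and 12% of all measured genes. Hsp90ab1 had 41 UMIs (9.87 CPM) with the ERK inhibitor and 222 UMIs (5.35 CPM) with DMSO, at 0.91 (0.37 to 1.37). As a mean over cells its ratio was 0.35, within 1.5-fold. After thinning to 1000 UMIs it was -0.34, from 1 of 251 keratinocytes with the gene in the ERK inhibitor library and 39 of 7710 with DMSO, too few to read a direction from. Dnajb1 stood at 118 against 88.8 CPM (0.41, 0.27 to 0.54). It was past 1.5-fold in 2 of 13 alternatives, as a mean over cells (0.84) and after thinning (0.89), and at 0.33 when weighted to the DMSO mix of clusters. Hspa8 stood at 1162 against 913 CPM (0.35, 0.30 to 0.39). Hsp90aa1 stood at 473 against 605 CPM (-0.35, -0.42 to -0.29) and Hspe1 at 214 against 267 CPM (-0.32, -0.42 to -0.22). Hspb1 (797 against 657 CPM, 0.28, but -0.12 when weighted to the DMSO mix of clusters and 0.66 as a mean over cells), Hsph1 (14.0 against 16.7 CPM, -0.23) and Hspd1 (196 against 209 CPM, -0.09) were nearer to 0. After thinning Hsph1 was at -1.06, from 2 of 251 keratinocytes with the gene in the ERK inhibitor library and 125 of 7710 with DMSO, too few to rely on. In the 34 cycling basal keratinocytes of the ERK inhibitor library Hspd1 stood at 428 against 279 CPM (0.62) and Hspb1 at 79.3 against 159 CPM (-0.98).

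Immediate early genes were split in this comparison. Of 21 measured, 7 were higher and 4 lower, with a median of -0.01 and a sum of 1850 against 1378 CPM. Egr1, a textbook output of ERK signalling, had 3 UMIs (0.72 CPM) with the ERK inhibitor and 249 UMIs (6.0 CPM) with DMSO, at -2.65 (-5.34 to -1.49). Jun at 180 against 50.5 CPM (1.84), Myc at 59.9 against 22.8 CPM (1.40) and Klf2 at 31.3 against 12.2 CPM (1.37) were higher. Among 21 other cytosolic chaperones 1 was higher, Hspa4l at 33.9 against 18.5 CPM (0.88), and 2 were lower. These were Hspb2, with 0 against 42 UMIs and at least 1.4-fold lower when 3 UMIs are taken for the count of 0, a bound that does not reach 1.5-fold, and Cryab, with 2 against 97 UMIs (-1.71, -5.35 to -0.39). Hspb8 was next (-0.36). None of 7 CCT genes was past 1.5-fold, with Cct3 (-0.37), Cct8 (0.20), Cct5 (-0.19) and Tcp1 (-0.18) farthest from 0. Endoplasmic reticulum genes had 2 of 18 higher, Xbp1 (1.15) and Hsp90b1 (0.65), and 1 lower, Calr at 215 against 455 CPM (-1.08), with Sdf2l1 (0.57) next. Mitochondrial genes had 0 of 7 past 1.5-fold, with Clpp (-0.58), Clpx (0.31), Lonp1 (0.26) and Trap1 (0.20) at the ends. Metallothioneins were the list with every member higher, Mt2 at 615 against 144 CPM (2.09), Mt4 at 56.5 against 27.4 CPM (1.05) and Mt1 at 1136 against 559 CPM (1.02).

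In mouse keratinocytes, growth factor beads went with less Hspa1a than PBS beads and with fewer transcripts of immediate early genes. Of 10 measured members 0 were higher and 1 lower, against 4.45% and 3.63% of all measured genes. Hspa1a had 654 UMIs (85.9 CPM) with FGF2 and NRG1 beads and 1290 UMIs (134 CPM) with PBS beads, at -0.64 (-0.78 to -0.50). Hspa1b had 812 UMIs (107 CPM) against 1299 UMIs (135 CPM), at -0.34 (-0.47 to -0.21). Their sum, which does not depend on telling them apart, was 193 against 269 CPM (-0.48, -0.57 to -0.39), within 1.5-fold. The call for Hspa1a is therefore close to the threshold. Hspb1 was also within it, at 540 against 778 CPM (-0.53, -0.58 to -0.47) and -0.14 when weighted to the PBS mix of clusters, as was Hsph1 with 80 against 145 UMIs (10.5 against 15.1 CPM, -0.51, -0.93 to -0.11). Dnajb1 stood at 57.9 against 64.8 CPM (-0.16, -0.34 to 0.02). The more inducible HSP90 gene Hsp90aa1 stood near 0, at 333 against 336 CPM (-0.01). The constitutive and mitochondrial genes lay within 1.5-fold too, with Hsp90ab1 at 2842 against 2316 CPM (0.29), Hspa8 at 667 against 701 CPM (-0.07), Hspd1 at 233 against 226 CPM (0.04) and Hspe1 at 279 against 237 CPM (0.23). The median of the members was -0.12 and that of all genes -0.01.

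**Figure D4:**
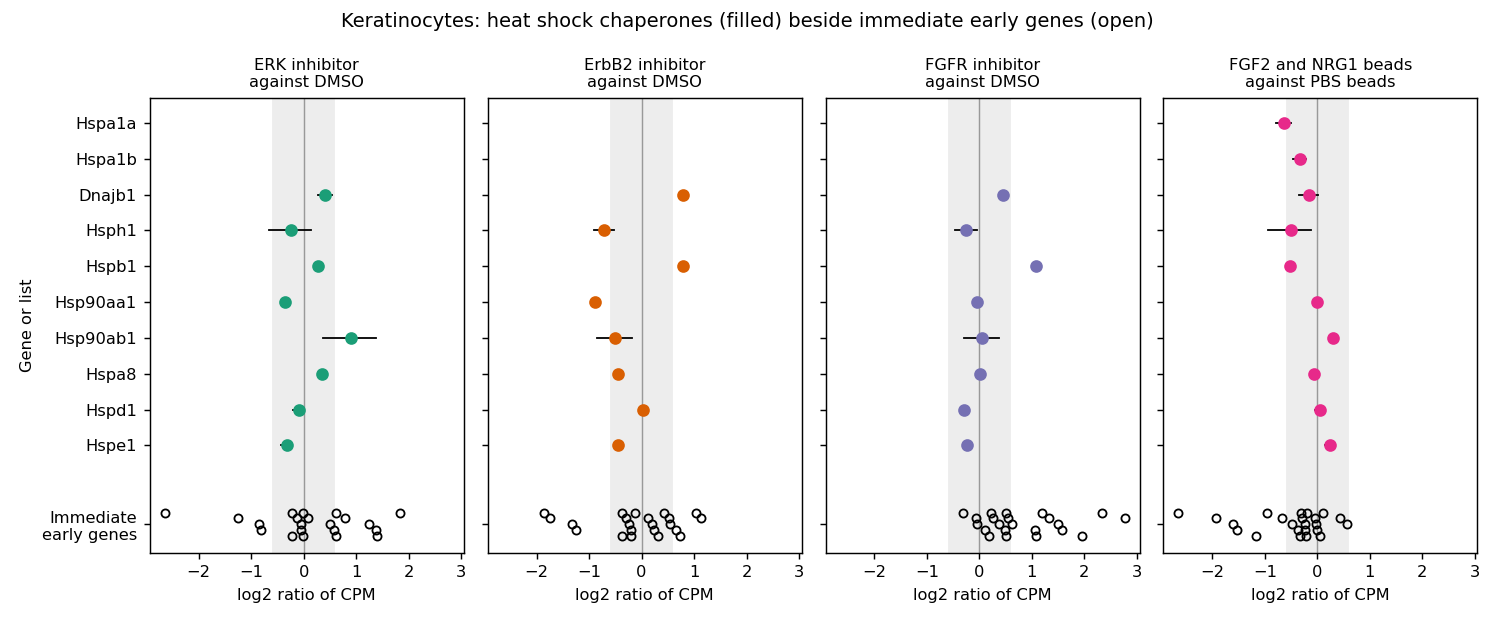
Log2 ratio of each member (filled, with its 95% counting interval) and of each measured immediate early gene (open) in epidermal keratinocytes, in 4 panels, one for each comparison; the grey band marks ratios within 1.5-fold. With the FGFR inhibitor the open points reach 2.78 while the members other than Hspb1 stay inside the band, and with FGF2 and NRG1 beads the open points reach down to -2.66 while only Hspa1a of the members is outside it.

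The lower Hspa1a appeared in each keratinocyte class, at 55.7 against 83.2 CPM in basal (-0.57), 32.6 against 58.5 CPM in cycling basal (-0.83) and 122 against 175 CPM in suprabasal keratinocytes (-0.52). Within clusters it was below 0 in 7 of 7, between -1.04 and -0.28. Hspa1b was below 0 in 5 of 8 clusters, and in the classes stood at 64.3 against 84.0 CPM (-0.38), 51.6 against 63.5 CPM (-0.30) and 147 against 174 CPM (-0.24). Keratinocytes had a median of 8813 UMIs with growth factor beads and 10721 with PBS beads, so shares of cells were taken after thinning each cell to 1000 UMIs. Hspa1a was then found in 7.09% (5.37% to 9.15%) of cells with growth factor beads and 11.8% (9.64% to 14.3%) with PBS beads, and without thinning in 44.2% and 57.5%. For Hspa1b the thinned shares were 9.97% (7.94% to 12.3%) and 13.0% (10.7% to 15.6%), and the unthinned ones 47.4% and 60.4%. Both genes were counted in every keratinocyte class, and free RNA in the droplets was not tested as a source of these UMIs. Over all cells of the libraries the levels were 46.0 against 95.1 CPM for Hspa1a (-1.05) and 57.5 against 95.4 CPM for Hspa1b (-0.73), a gap that includes the different mix of cell types.

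Immediate early genes in these keratinocytes had 0 of 23 higher and 7 lower, with a median of -0.30 and a sum of 1223 against 1470 CPM. Fos at 5.91 against 38.1 CPM (-2.66) led, followed by Nr4a1 at 1.45 against 5.92 CPM (-1.93), Atf3 at 5.52 against 17.0 CPM (-1.60) and Dusp1 at 18.1 against 52.3 CPM (-1.52). The Hspa1a call ended with both libraries weighted to the PBS mix of clusters (-0.48), as a mean over cells (-0.57) and with all interfollicular clusters (-0.58). When the 25% of cells with the highest share of immediate early UMIs in each library were left out, 3 members were lower, Hspa1a (-0.77), Hsph1 (-0.66) and Hspb1 (-0.88). This step takes the same share of cells from both libraries. An immediate early difference across a whole library can remain after it, so it cannot separate Hspa1a from that difference. Of 23 other cytosolic chaperones and heat shock factor targets 0 were higher and 1 lower, the polyubiquitin gene Ubb at 536 against 1135 CPM (-1.08), with Cryab (0.51), Hsf2 (-0.48) and Hspa2 (-0.30) next. None of 8 CCT genes was past 1.5-fold, with Cct3 (0.22), Cct7 (-0.07), Cct6a (0.07) and Cct8 (-0.07) farthest. Neither were any of 18 endoplasmic reticulum chaperones, led by Ddit3 (0.46), Xbp1 (-0.44), Hyou1 (-0.31) and Calr (0.27). The 7 mitochondrial genes were within 1.5-fold too, led by Lonp1 (0.21), Grpel1 (-0.13), Clpp (0.11) and Trap1 (-0.09), as were Mt4 (-0.37), Mt2 (-0.23) and Mt1 (-0.10).

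Per cell, the inducible HSP70 genes and Fos were rarely found together at 1000 UMIs. With growth factor beads Hspa1b was found in 7.41% of the 54 cells with Hspa1a and in 10.2% of the 708 without it, and with PBS beads in 13.2% of 91 and 13.0% of 678. With 4 and 12 cells holding both, no excess of cells with both genes could be read at this depth. Fos was found in 1.85% of cells with Hspa1a and 0.706% of cells without it with growth factor beads, and in 4.40% (4 cells) and 2.06% with PBS beads, numbers too small to read an order from. In the FGFR inhibitor library, where Fos was more frequent, it was found in 12.6% of 238 keratinocytes with Dnajb1 and in 19.8% of 2065 without it. In suprabasal keratinocytes alone these shares were 11.49% and 21.4%. For Hspb1 in those suprabasal cells the shares were 18.4% of the cells with it and 22.4% of those without it. In the DMSO keratinocytes Fos was found in 6.06% of cells with Dnajb1 and 4.45% of those without it. At 1000 UMIs a cell, a negative for either gene is often a missed count.

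The members were also read in every class, inside and outside keratinocytes, that held 30 or more cells in each library of a pair. The counts of classes below include the basal, cycling basal and suprabasal keratinocytes already described. All classes of a comparison come from the same pair of libraries and are not independent of each other. Free RNA in the droplets was not tested as a source of differences that they share. The lower Hsp90aa1 with the ErbB2 inhibitor was the most widely shared difference. Its ratio was below 0 in 15 of 15 classes, between -1.15 and -0.31 with a median of -0.71, and its interval was below 0 in 14. Dendritic cells had 164 CPM with the ErbB2 inhibitor and 366 CPM with DMSO (-1.15), chondrocytes had 284 against 507 CPM (-0.83), cluster 6 had 242 against 412 CPM (-0.76) and endothelium had 245 against 395 CPM (-0.69). Dermal sheath and papilla cells, at 283 against 356 CPM, had an interval that included 0 (-0.89 to 0.21). After thinning, Hsp90aa1 was found in 27.4% of keratinocytes with the ErbB2 inhibitor and 42.0% with DMSO. In the same classes Hspa8 was below 0 in 14 of 15, Hspe1 in 12 of 15, while Hspd1 was above 0 in 13 of 15. Their intervals were clear of 0 on that side in 10, 4 and 5 classes. Dnajb1 was mixed, between -0.65 and 0.71, above 0 in 10 and below 0 in 5 of 15, with an interval above 0 in 6 and below 0 in 0.

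**Figure D5:**
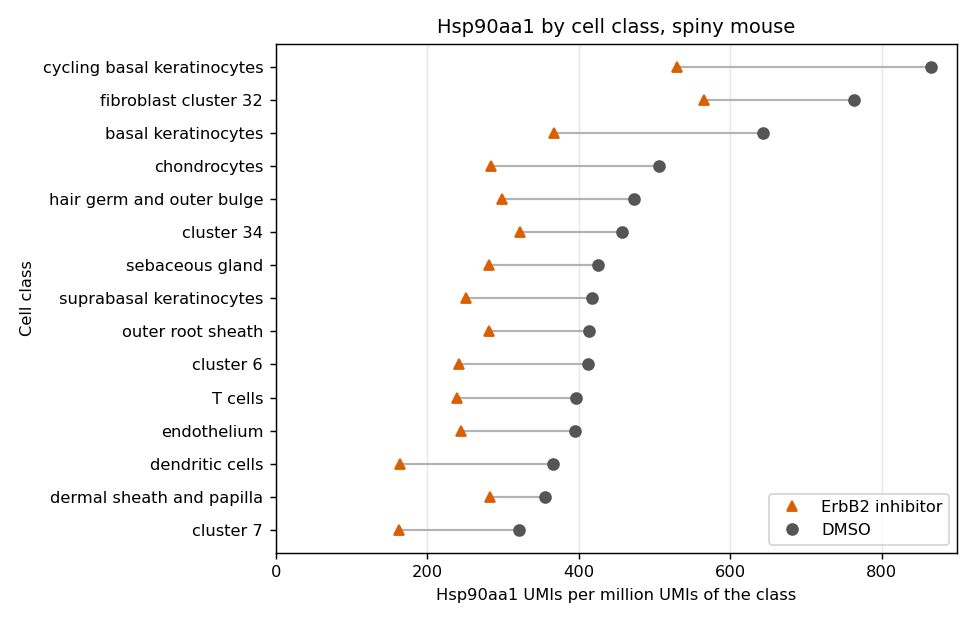
Hsp90aa1 in CPM (x axis) in 15 cell classes (y axis), with the ErbB2 inhibitor library as triangles and the DMSO library as circles. The triangle lies left of the circle in every class drawn, from 164 against 366 CPM in dendritic cells to 531 against 865 CPM in cycling basal keratinocytes.

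With the ERK inhibitor 8 classes could be read, and Hspa8 was above 0 in 8 of 8 (0.08 to 0.79) and Hsp90aa1 below 0 in 8 of 8. The intervals of each were clear of 0 in 6 classes. In endothelium Hsp90aa1 stood at 223 against 395 CPM (-0.79) and in cluster 6 at 234 against 412 CPM (-0.81). Cells of cluster 6 held 11611 CPM of neutrophil markers with the ERK inhibitor and 608 CPM with DMSO, and 528 against 23645 CPM of suprabasal keratinocyte markers, whose part in that ratio was not tested. In cluster 7, with 55 against 227 cells, 5 of 6 measured members were lower, where 25.7% of all measured genes were higher and 44.9% lower. Hsp90aa1 was 43.0 against 322 CPM there (-2.80), Hspb1 had 5 against 173 UMIs (17.9 against 520 CPM), and Hspe1 had 0 against 70 UMIs. Cells of this cluster held 283418 CPM of neutrophil markers with the ERK inhibitor and 31375 CPM with DMSO, and 975 against 37143 CPM of suprabasal keratinocyte markers. The part of this difference in cell content in the lower chaperones was not tested. Hspa8 in the same cells stood at 857 against 809 CPM (0.08).

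With the FGFR inhibitor the immediate early difference was also found in classes where no measured member was past 1.5-fold. With so few measured members a count of 0 is not far from the shares of all genes given here. Hspa1a and Hspa1b, with 0 UMIs in the spiny cells, could not be read. In endothelium 0 of 7 measured members were past 1.5-fold (median 0.01), where 15.2% of all genes were higher and 9.47% lower, beside 10 of 15 immediate early genes higher (median 0.70), with 0 of 15 lower. Basal keratinocytes had 0 of 8 members past it (median -0.00), where 4.19% of all genes were higher and 8.48% lower, beside 10 of 20 immediate early genes higher (median 0.55). Cycling basal keratinocytes had 0 of 8 (0.12), where 5.62% were higher and 6.08% lower, beside 10 of 20 immediate early genes higher and 1 lower (0.57). Hspb1 was below 0 in 11 of 16 classes, for example in the sebaceous gland (84.4 against 140 CPM, -0.73) and T cells (249 against 411 CPM, -0.70). With the ERK inhibitor all cells together had 1 of 8 members higher (median -0.07), where 19.6% of all genes were higher and 8.61% lower, beside 12 of 22 immediate early genes higher and 3 lower (median 0.65). Whether handling of the tissue differed between libraries was not tested.

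With growth factor beads, Hspa1a was below 0 in 8 of 10 classes, with its interval below 0 in 4 and above 0 in 1. Hspa1b was below 0 in 9 of 11, with its interval below 0 in 2 and above 0 in 2. Dnajb1 was below 0 in 11 of 11, but its interval was below 0 in only 1. Hsp90ab1 was above 0 in 13 of 14, with its interval above 0 in 11. Chondrocytes had the widest gap for Hspa1a, at 10.7 against 61.7 CPM (-2.56), from 31 against 21 UMIs in 248 against 36 cells. In the same cells basal keratinocyte markers summed to 740 against 5959 CPM and chondrocyte markers to 11579 against 4643 CPM, and their part in the Hspa1a gap was not tested. Fibroblast cluster 32 stood apart, with 6 of 9 measured members higher and 1 lower, where 17.8% of its measured genes were higher and 29.1% lower. Hsp90ab1 was 2918 against 1102 CPM there (1.40, 1.21 to 1.60), Hspe1 341 against 177 CPM (0.91, 0.47 to 1.47) and Hspd1 216 against 120 CPM (0.80, 0.27 to 1.5). Hspa8 (0.70), Hsp90aa1 (0.63) and Hsph1 (31 against 1 UMIs, 0.82, -0.81 to 7.12) were the others above 1.5-fold. The lower member was an inducible HSP70 gene, Hspa1a or Hspa1b. In the same cells 12 of 14 immediate early genes were lower (median -1.40) and 7 of 8 CCT genes higher. The PBS library held only 32 cells of this cluster, and its fibroblast markers summed to 18140 CPM with growth factor beads and 74295 CPM with PBS beads. The part of that difference in the chaperone ratios was not tested.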

How the data were processed

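Cell Ranger 6.1.1 and the mouse build GRCm38 are named in the submitters' processing notes. How cells were filtered is not stated there, nor is the reference for spiny mouse reads. The values the authors deposited are UMI counts in whole numbers, with an annotation table that holds cluster, type name and percent columns (mitochondrial, ribosomal, haemoglobin) for each cell. No other columns of samples were present (0).

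For each library the deposited counts of a cell class were added up, divided by the class's UMIs (CPM), and compared as log2 ratios with a pseudocount of 1 UMI, over all genes with at least 30 UMIs in both libraries together. Ratios at or beyond 1.5-fold are called higher or lower. Classes needed 30 cells in both libraries. Intervals (95%) are exact and cover counting error only. Samples were grouped by their labels, 1 library each, so no test was made. The comparisons were each inhibitor against DMSO and FGF2 and NRG1 beads against PBS beads. Members and lists were chosen with earlier results of these data known. All members are named, and of each companion list the up to 4 measured genes with the largest absolute ratio in keratinocytes. Pattern likeness is Pearson's r of log2(CPM + 10) over library-by-type profiles, for genes with at least 100 UMIs. Keratinocyte clusters with more markers of another class than of their own among their 10 leading genes were left out, which removed 7.86% to 25.3% of annotated keratinocytes per library. No doublet caller was run; leaving out the deepest 5% of cells stood in for it. Median depth of keratinocytes was 4166 to 13924 UMIs. Alternatives were other pseudocounts, count minimums and scalings, means over cells, thinning to 1000 UMIs, all annotated clusters, the control's cluster mix, and subsets of cells. Sequences came from GENCODE vM21 transcripts, aligned with Biopython 1.88. Python 3.11.15, NumPy 2.4.6, SciPy 1.17.1, pandas 2.3.3 and matplotlib 3.10.9 were used, and the code was tested on simulated data.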

Additional observations from a re-analysis of the deposited data

Results flagged for a closer look

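In 5 cases a member was past 1.5-fold in opposite directions in 2 cell classes of the same comparison, with both counting intervals clear of 0. The difference between the classes was not tested, since each group is 1 library. In the ERK inhibitor comparison Hspb1 had a log2 ratio of 0.83 in cluster 6 (660 against 373 CPM, 33 against 410 cells) and -4.60 in cluster 7 (5 against 173 UMIs). In cluster 6 neutrophil markers summed to 11611 CPM with the ERK inhibitor and 608 CPM with DMSO, and suprabasal keratinocyte markers to 528 and 23645 CPM. In the same comparison Hspd1 had 0.62 in cycling basal keratinocytes (34 against 1428 cells) and -3.68 in cluster 7, from 2 against 45 UMIs.

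With FGF2 and NRG1 beads Hspa1b had 1.35 in cluster 6 (66 against 6 UMIs) and -1.21 in chondrocytes (47 against 12 UMIs), where basal keratinocyte markers summed to 740 against 5959 CPM and chondrocyte markers to 11579 against 4643 CPM. Hspd1 had 0.80 in fibroblast cluster 32 (410 against 25 UMIs) and -0.91 in cluster 34 (32 against 59 UMIs), the cluster annotated as fibroblasts that led with Schwann cell genes in the mouse. Schwann cell markers in cluster 34 summed to 2588 against 4585 CPM. With the FGFR inhibitor Hspb1 had 0.87 in suprabasal keratinocytes and -0.79 in cluster 6, at 214 against 373 CPM in 115 against 410 cells.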

How the results depend on the processing

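Over the alternatives, 96 of the recomputed counts of higher or lower members in keratinocytes stayed within 1.5 times the reported one, 3 were larger and 5 smaller. The reported counts were only 0 to 2. The ratios were less stable, with 385 recomputed ones the same within counting error, 107 moved and 1 reversed. The largest shares moved with the control mix of clusters (24 of 38) and after thinning (21 of 37). With both libraries weighted to the control mix of clusters, 0 members were higher with the ErbB2 inhibitor (2 otherwise), 0 higher with the FGFR inhibitor (1 otherwise) and 0 lower with FGF2 and NRG1 beads (1 otherwise). With growth factor beads 0 members were lower also as means over cells and with all interfollicular clusters, and 3 without the 25% of cells highest in immediate early share. With the ERK inhibitor 2 members were higher as means over cells (1 otherwise) and 1 was lower after thinning to 1000 UMIs (0 otherwise). The lower one was Hsph1, from 2 cells with the gene in that library. Of the ratios past 1.5-fold only that of Hsp90ab1 with the ERK inhibitor changed sign, at -0.34 after thinning, from 1 cell with the gene in that library. Causes were not tested. Over 13 alternatives the ErbB2 inhibitor ratio of Hsp90aa1 stayed between -0.90 and -0.70 and that of Hsph1 between -0.74 and -0.61, past 1.5-fold in all 13. Dnajb1 ranged from 0.49 to 0.89 and Hspb1 from 0.16 to 0.88 there. Hspb1 with the FGFR inhibitor ranged from 0.46 to 1.23, and Hspa1a with growth factor beads from -0.87 to -0.48, past 1.5-fold in 10 of 13. Leaving out cells with a barcode in more than 1 library was chosen after seeing the data. No paired analysis was possible because each group is 1 library, and none could be left out. Depth limits Hsph1 and the spiny Hsp90ab1 most.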

Other observations

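Hspa8, Hsp90aa1 and Hspe1 kept the same side of 0 in nearly all classes of the ERK inhibitor library (Hspe1 below 0 in 7 of 8). That library held only 631 cells, and its classes are not independent of each other. In the ErbB2 inhibitor keratinocytes, after thinning to 1000 UMIs, Hspb1 was found in 55.6% of 561 cells with Dnajb1 and 38.6% of 3957 cells without it, and with DMSO in 38% and 27.2%. These shares are over all keratinocyte layers together. Both genes were highest in suprabasal keratinocytes of the ErbB2 inhibitor library, at 226 CPM (Dnajb1) and 1956 CPM (Hspb1). The part of the mix of layers in these shares was not tested. The share of UMIs held by the top 10% of keratinocytes was 46.2% with growth factor beads and 44.5% with PBS beads for Hspa1a, and 27.9% and 27.7% for Hsp90ab1.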
